A study of Mus musculus with 6 samples.

Results

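Brown adipose tissue (BAT) of mice fed a low-fat diet (LFD) or a high-fat diet (HFD) was examined for 9 genes through which noradrenaline and thyroid hormone act on the tissue. The genes are the adrenergic receptors Adrb1, Adrb3, Adra1a and Adra2a, the adenylyl cyclase Adcy3, the phosphodiesterase Pde3b, the deiodinase Dio2 and the thyroid hormone receptors Thra and Thrb. They were picked by symbol as members of these 2 signalling systems, 9 of the 47729 genes in the deposited tables, and all 9 had enough counts to be tested. The question was whether 4 weeks of HFD feeding changed their transcript levels.

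The mice were wild type male C57BL/6J, a common inbred strain, with 3 mice per diet. Feeding began at 6 weeks of age and the tissue was taken at 10 weeks. The HFD mice ate a purified diet with 45% of its calories from fat, and the LFD mice ate a standard laboratory rodent diet, so the diets differed in more than their fat content. The right interscapular BAT was sequenced after removal of ribosomal RNA, and the 3 mice of a diet were the fattest, the middle and the leanest of their group by fat mass. The sources used here do not tie these to the replicate numbers.

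Noradrenaline from sympathetic nerves reaches brown adipocytes through adrenergic receptors. Beta receptors couple to stimulatory G proteins, adenylyl cyclase makes cyclic AMP (cAMP), and cAMP activates protein kinase A, which drives lipolysis and the transcription of thermogenic genes such as Ucp1. The alpha-2 receptor couples to inhibitory G proteins, the alpha-1 receptor to phospholipase C, and phosphodiesterases break cAMP down. Type 2 deiodinase, the Dio2 product, turns thyroxine into the active hormone T3 within the cell, and Dio2 is itself induced by cAMP, so the 2 systems meet at this enzyme.

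The promoter of Dio2 is shown because it carries the sequence through which cAMP can act on the gene. The window below is the 250 bases before the start of transcription in RefSeq, on the minus strand at chr12:90739039-90739288 (GRCm38.p6), and the capitals mark the cAMP response element TGACGTCA, the same on both strands.
Dio2 promoter: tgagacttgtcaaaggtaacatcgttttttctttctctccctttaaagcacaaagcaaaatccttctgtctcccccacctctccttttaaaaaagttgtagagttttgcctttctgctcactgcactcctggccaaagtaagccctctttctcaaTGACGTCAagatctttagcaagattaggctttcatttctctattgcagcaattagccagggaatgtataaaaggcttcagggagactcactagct
The first base of this element lies 95 bases upstream of the start. The same 8 letters were found in 508 of 32851 promoter windows of that length (1.55%). RefSeq windows were at hand for 5 of the 9 genes, and the windows of Adrb1, Adra2a, Adcy3 and Thrb did not hold the letters. A match is only a string in the window, and no binding was measured.

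Each library held 17156991 to 21603487 counts, and mitochondrially encoded genes took 8.50% to 22.7% of them in HFD and 3.87% to 13.8% in LFD. The tissue marker Ucp1 was found in all 6 mice, at 796 to 4021 TPM in HFD and 11.0 to 443 TPM in LFD, where TPM scales a level to the length of the transcript and to a common total. The 8 brown adipocyte markers summed to 1841 to 7301 TPM in HFD and 314 to 2041 TPM in LFD, and all 8 had a positive log2 fold change. Of the 6 general adipocyte markers only 1 did (median of -0.79). All 5 tested markers of T and natural killer cells were higher in every HFD mouse (median of 2.66). The 12 skeletal muscle markers summed to 7.52 to 179.5 TPM in HFD and 1756 to 11922 TPM in LFD, and each of the 12 was lower in all HFD mice. LFD replicate 2 had both the lowest Ucp1 (11.0 TPM) and the highest summed muscle markers (11922 TPM). How much of each sample was brown fat was not measured. LFD replicate 3 stood apart, with the lowest summed level of the 6 adipocyte markers (3845 TPM against 4929 to 13958 TPM in the other mice) and the highest of the 6 fibroblast markers (8618 TPM against 842 to 3005 TPM). In whole tissue, fewer cells of a type and less RNA per cell cannot be told apart, and the part of these differences in the results that follow was not tested except where values without a mouse are given.

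Counts were compared by the quasi-likelihood test of edgeR over 17668 genes, with Benjamini-Hochberg adjustment over all of them. The call rule asked for a log2 fold change beyond 1.5 in either direction with an adjusted p under 0.01. None of the 9 genes was called, and neither was any other gene (0.0% of genes tested), with adjusted p-values of 0.236 to 0.937 for the 9. At an unadjusted p under 0.05 the count was 3 of 9 higher in HFD (Adrb1, Adcy3 and Dio2), beside 3.86% of all genes tested, and 0 of 9 lower, beside 6.62%. The diets did not overlap in log2 CPM, the counts scaled to a common library size, for 2 of 9 genes, Adrb1 and Adcy3, both higher in HFD, where 6.72% of all genes tested lay wholly higher and 9.23% wholly lower. The fitted log2 fold change was positive for 4 genes and negative for 5, and its median over the 9 was -0.31, against -0.05 over all genes tested.

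Same-numbered mice of both diets deviated together from their diet means, so the replicate number was also fitted as a block. This pairing is not given by the labels and was read from the same counts. P-values with the block therefore rest on a design chosen from the data. Mitochondrially encoded counts fell from replicate 1 to 3 in HFD (22.7%, 16.5% and 8.50%) and in LFD (13.8%, 9.12% and 3.87%). What the numbers share was not tested. With the block, 4 of the 9 genes were higher in HFD at an unadjusted p under 0.05 (Adrb1, Adra1a, Adcy3 and Dio2), beside 8.75% of all genes tested, and 1 was lower (Adra2a), beside 8.76%. The smallest adjusted p of the 9 was then 0.102, and again none was called. The 4 genes were higher in HFD in all 3 same-numbered pairs, as were 21.1% of all genes tested, and Adra2a and Thra were lower in all 3 pairs, as were 21.2%. DESeq2, the tool the authors used, called 1 of the 9 genes, Adcy3 (adjusted p = 0.00646), beside 2.03% of the genes to which it gave an adjusted p.

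**Figure D1:**
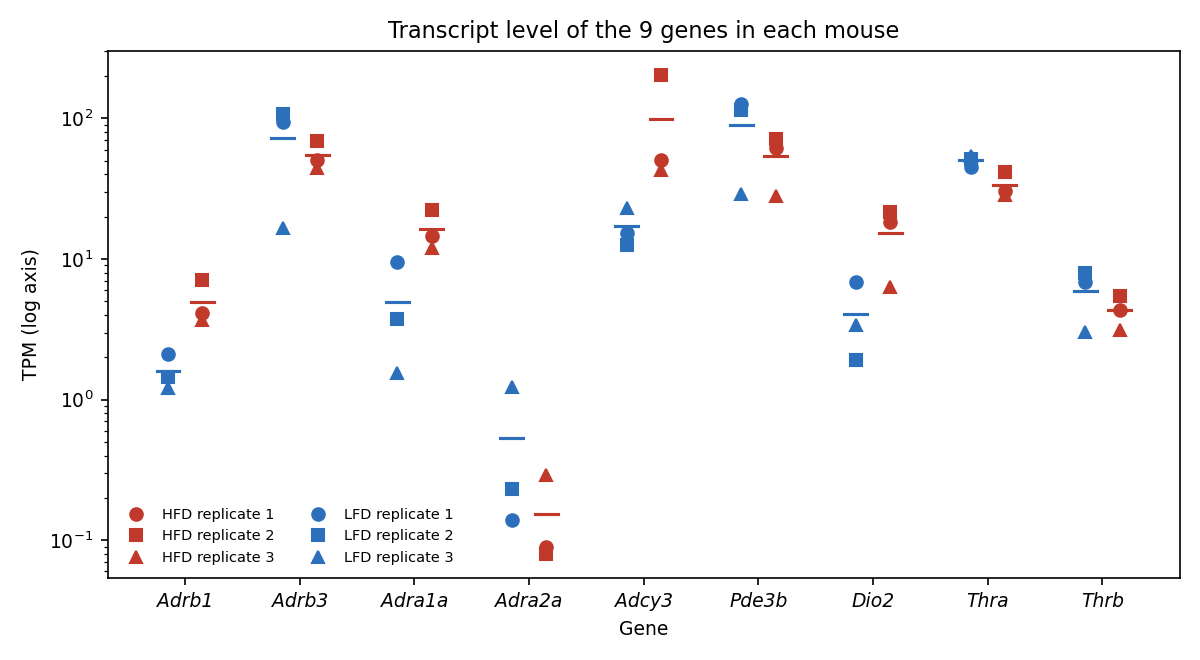
TPM (log axis) of each of the 9 genes in each of the 6 mice, with red for HFD, blue for LFD, a symbol for each replicate number and a horizontal bar for the mean of each diet. Adrb1, Adra1a and Adcy3 were higher in every HFD mouse and Thra was lower, whereas LFD replicate 3 lay apart from the other LFD mice for Adrb3, Pde3b and Adra2a.

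Per length of transcript, the mean level in HFD was highest for Adcy3 (99.5 TPM), carried by HFD replicate 2, followed by Adrb3 (54.9 TPM), Pde3b (53.8 TPM) and Thra (33.5 TPM). In LFD the order was Pde3b (89.8 TPM), Adrb3 (73.2 TPM), Thra (50.5 TPM) and Adcy3 (17.1 TPM). The other genes were lower in both diets, with Adra1a at 16.4 and 4.93 TPM, Dio2 at 15.4 and 4.06 TPM, Thrb at 4.32 and 5.92 TPM and Adrb1 at 4.97 and 1.60 TPM in HFD and LFD. Adra2a was last, at 0.153 and 0.537 TPM. Over the 6 mice, neighbours in the order of the pooled means overlapped in their ranges, except for Thra (28.4 to 54.3 TPM) and Adra1a (1.54 to 22.4 TPM). On the TPM scale, 3 genes lay wholly higher in HFD (Adrb1, Adra1a and Adcy3), where 1.65% of all genes tested did, and Thra lay wholly lower, where 11.6% did. TPM sets the typical gene lower in HFD than the main scaling does, with a median log2 fold change of -0.18.

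Adrb3 encodes the beta-3 receptor, the main adrenergic receptor of rodent adipocytes, and lies on chromosome 8 at 27225776 to 27250616 on the minus strand (GRCm38, GENCODE M21, as for all positions of genes given here). Its level was 50.7, 69.6 and 44.5 TPM in HFD replicates 1 to 3 and 94.5, 108 and 16.7 TPM in LFD replicates 1 to 3. Both the highest and the lowest values were LFD mice, and the LFD spread took in every HFD mouse. The log2 fold change was -0.36 with a standard error (SE) of 0.77 (edgeR adjusted p = 0.937). Its sign depended on single mice: it was 0.15 with the replicate block, 0.23 without LFD replicate 1 and -0.87 without LFD replicate 3, with adjusted p-values of 0.927, 0.933 and 0.278. Without LFD replicate 3, every HFD mouse lay below both remaining LFD mice. The summed level of the adipocyte markers was also lowest in LFD replicate 3. In TPM, Plin1, Lipe, Fabp4 and Pparg were lowest in that mouse, and Cidec and Adipoq were lowest in HFD replicate 3. The part of this difference in the level of Adrb3 was not tested. The annotation places Gm45470, a non-coding gene on the other strand, across 839 exonic bases of Adrb3, and its counts were not analysed here.

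Adrb1 encodes the beta-1 receptor, the beta receptor of brown adipocyte precursors and of the heart, and lies on chromosome 19 at 56722199 to 56733113 on the plus strand. It had 219, 274 and 155 counts in HFD replicates 1 to 3 and 91, 49 and 35 counts in LFD replicates 1 to 3. These counts correspond to 4.14, 7.08 and 3.70 TPM in HFD and 2.12, 1.46 and 1.21 TPM in LFD. Every HFD mouse was above every LFD mouse on both scales. The fold of HFD over LFD was 3.28, a log2 fold change of 1.71 with an SE of 0.55 (edgeR adjusted p = 0.350, or 0.102 with the replicate block). The log2 fold change stayed between 1.40 and 2.40 when any mouse was left out, and the diets did not overlap in any of these sets.

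Adra1a encodes the alpha-1A receptor, which raises intracellular calcium, and lies on chromosome 14 at 66635251 to 66771168 on the plus strand. Its level was 14.7, 22.4 and 11.99 TPM in HFD replicates 1 to 3 and 9.51, 3.75 and 1.54 TPM in LFD replicates 1 to 3. The lowest HFD mouse was above the highest LFD mouse in TPM, but in CPM after scaling HFD replicate 3 (31.5 CPM) fell below LFD replicate 1 (37.3 CPM). A log2 fold change of 1.65 with an SE of 0.82 was fitted (edgeR adjusted p = 0.549), and of 2.23 with the replicate block (adjusted p = 0.144). It was 3.08 without LFD replicate 1 and 1.17 without LFD replicate 3, so its size depended on which LFD mouse was left out.

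Adra2a encodes the alpha-2A receptor, which lowers cAMP, and lies on chromosome 19 at 54044151 to 54048982 on the plus strand. It was the least abundant of the 9 genes, with 7, 5 and 19 counts in HFD replicates 1 to 3 and 9, 12 and 55 counts in LFD replicates 1 to 3. LFD replicate 3 had more than the other LFD mice, which lay within the HFD range. Its log2 fold change was -1.39 with an SE of 0.81 (edgeR adjusted p = 0.628), and -0.23 without LFD replicate 3 (adjusted p = 0.916). With the replicate block it was -1.24 (adjusted p = 0.239), and the HFD mouse was lower in all 3 same-numbered pairs. These values rest on 5 to 55 counts per mouse.

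Of the other adrenergic receptors, Adra1b, Adra2b and Adra2c stayed at or under 0.95 TPM in every mouse and did not pass the filter on low counts. DESeq2, run without that filter, gave them adjusted p-values of 0.110 to 0.989. Adra1d had a log2 fold change of -0.34 and overlapping diets.

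Adcy3, which makes cAMP downstream of the beta receptors, lies on chromosome 12 at 4133103 to 4213525 on the plus strand. It had 2703, 7015 and 2010 counts in HFD replicates 1 to 3 and 829, 554 and 940 counts in LFD replicates 1 to 3. The corresponding levels were 50.4, 205 and 43.3 TPM in HFD and 15.3, 12.7 and 23.2 TPM in LFD. Every HFD mouse was above every LFD mouse, and HFD replicate 2 was far above the other HFD mice. The fold of HFD over LFD was 4.59, a log2 fold change of 2.20 with an SE of 0.55 (edgeR adjusted p = 0.236, or 0.197 with the replicate block). Leaving out HFD replicate 2 gave a log2 fold change of 1.52, and the diets did not overlap in any set with a mouse left out.

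RSEM also reports the mean length of the transcripts it assigned to a gene. For Adcy3 this was 2524, 2215 and 2750 bases in HFD replicates 1 to 3 and 3122, 3222 and 3460 bases in LFD replicates 1 to 3. All HFD mice were below all LFD mice, which held for 5.93% of tested genes with more than 1 transcript (681 of 11489), and for none of the other 5 members with more than 1 transcript. The GENCODE M21 annotation gives lengths for the 8 transcripts of Adcy3, of which 5 are 4348 to 5621 bases long and 3 are short non-coding ones of 426 to 532 bases. The lengths RSEM used differ from those of this annotation for some genes, so the share of the short transcripts was not worked out. This difference was noticed in the data and has no test. Fold changes of counts are not corrected for length, whereas TPM is.

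**Figure D2:**
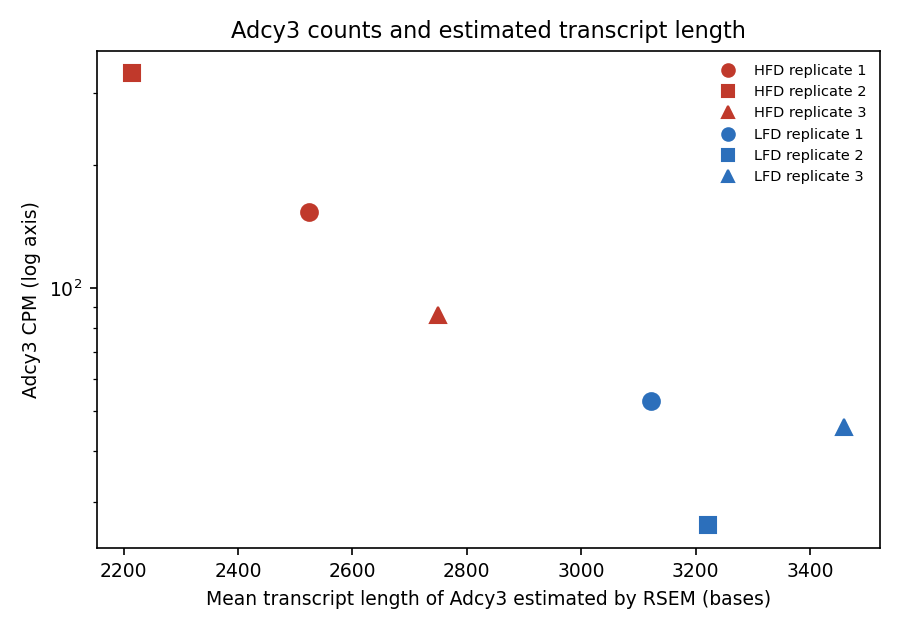
CPM of Adcy3 (log axis) against its mean transcript length in bases as RSEM estimated it, 1 point per mouse, with red for HFD and blue for LFD. The 3 HFD mice lie at 2215 to 2750 bases and 86.0 to 335 CPM, and the 3 LFD mice at 3122 to 3460 bases and 26.4 to 52.9 CPM.

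Adcy3 shares 1380 exonic bases with Cenpo, a centromere protein gene on the other strand. The strand setting of the counting is not given in the sources used here, so reads in the shared bases may have been split between them. Cenpo had 125, 298 and 255 counts in HFD and 102, 168 and 190 counts in LFD, fewer than Adcy3 in every mouse, with a log2 fold change of 0.44 and overlapping diets.

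Of the 9 other adenylyl cyclases listed, 8 were tested. Adcy4 and Adcy7 had a positive log2 fold change, as Adcy3 had, and the other 6 a negative one, with a median of -0.86. Adcy6, the most abundant of them, was at 17.6 to 27.6 TPM in HFD and 20.8 to 30.8 TPM in LFD, with a log2 fold change of -0.15 and an SE of 0.38. Adcy2 was the one with an unadjusted p under 0.05 and separate diets, at 0.34, 0.47 and 0.53 TPM in HFD and 1.29, 4.41 and 1.80 TPM in LFD (log2 fold change of -2.20 with an SE of 0.46, edgeR adjusted p = 0.177). DESeq2 called Adcy2 (adjusted p = 0.000896).

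Pde3b encodes the phosphodiesterase through which insulin lowers cAMP in adipocytes, and lies on chromosome 7 at 114415281 to 114539251 on the plus strand. Its level was 61.6, 71.5 and 28.2 TPM in HFD replicates 1 to 3 and 126, 114 and 29.1 TPM in LFD replicates 1 to 3. LFD replicates 1 and 2 were the highest of the 6 mice, while replicate 3 of each diet was low and nearly the same. The log2 fold change was -0.54 with an SE of 0.76 (edgeR adjusted p = 0.889). It was -1.03 without LFD replicate 3, when the diets no longer overlapped in CPM, and 0.16 without LFD replicate 1, with adjusted p-values of 0.397 and 0.951.

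The 15 other cAMP phosphodiesterases were all tested, and 10 had a positive log2 fold change (median of 0.41). Pde8a was the most abundant, at 19.3 to 35.2 TPM in HFD and 18.8 to 51.7 TPM in LFD, with a log2 fold change of -0.05 and an SE of 0.31. Pde11a was at 0.91, 0.44 and 0.25 TPM in HFD and 2.37, 4.07 and 2.42 TPM in LFD, with separate diets (log2 fold change of -2.14 with an SE of 0.64, edgeR adjusted p = 0.319).

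**Figure D3:**
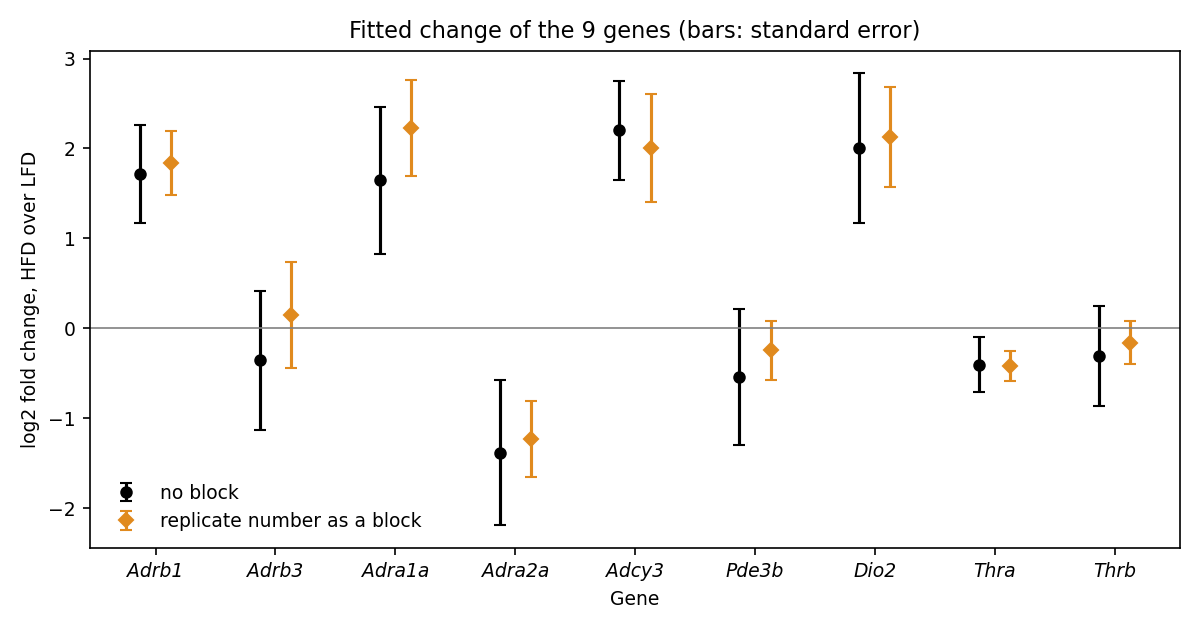
Fitted log2 fold change of HFD over LFD for the 9 genes, without a block (black circles) and with the replicate number as a block (orange diamonds), with bars of 1 SE. Adrb1, Adra1a, Adcy3 and Dio2 lie at 1.65 to 2.23 in both fits, and Adrb3 changes sign from -0.36 to 0.15.

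Dio2 lies on chromosome 12 at 90724552 to 90738438 on the minus strand, and its promoter with the cAMP response element is printed above. The printed window was counted from the RefSeq start, which lies further upstream than the GENCODE M21 start of the gene. It had 2294, 1998 and 629 counts in HFD replicates 1 to 3 and 700, 153 and 232 counts in LFD replicates 1 to 3. In TPM the HFD mice were at 18.2, 21.8 and 6.32, and the LFD mice at 6.87, 1.92 and 3.38. HFD replicate 3 fell just below LFD replicate 1 in TPM and further below it in CPM (26.9 against 44.7 CPM). All other HFD mice were above all LFD mice on both scales. The fit gave a log2 fold change of 2.00 with an SE of 0.83 (edgeR adjusted p = 0.476, or 0.160 with the replicate block). Leaving out 1 mouse moved the log2 fold change between 1.53 and 3.17. Dio2 shares 100 exonic bases with Gm26512, a non-coding gene on the other strand that had 1 to 24 counts per mouse.

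Ucp1, a target of both systems that encodes the uncoupling protein, was ordered in a like way, at 2728, 4021 and 796 TPM in HFD replicates 1 to 3 and 443, 11.0 and 76.0 TPM in LFD replicates 1 to 3. Its diets did not overlap (log2 fold change of 3.67 with an SE of 1.56, edgeR adjusted p = 0.480). Within LFD, replicate 1 was highest for Dio2, Ucp1, Adrb1 and Adra1a, and within HFD replicate 3 was lowest for all 4 in TPM. Summed brown adipocyte markers were also highest in LFD replicate 1 among LFD mice and lowest in HFD replicate 3 among HFD mice. Of the 10 cAMP effectors and cAMP-induced genes, 9 had a positive log2 fold change (median of 0.27), and none had an unadjusted p under 0.05. With the replicate block 2 of the 10 did, Ucp1 and Ppargc1a, a coactivator of mitochondrial genes, both higher in HFD in all 3 pairs (log2 fold changes of 4.66 and 1.48, edgeR adjusted p = 0.202 and 0.0540). Of all genes tested, 8.75% were higher at an unadjusted p under 0.05 with the block, and 21.1% were higher in all 3 pairs.

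The other deiodinases were near 0, with Dio1 at or under 0.04 TPM and Dio3 at or under 0.17 TPM in every mouse. Of the enzymes that add ubiquitin to the DIO2 protein or remove it, Usp33 was the most abundant, at 20.8 to 46.9 TPM in HFD and 34.4 to 55.8 TPM in LFD, with a log2 fold change of -0.22 and an SE of 0.26.

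Thra encodes the thyroid hormone receptor alpha and lies on chromosome 11 at 98740638 to 98769006 on the plus strand. Its level was 30.4, 41.6 and 28.4 TPM in HFD replicates 1 to 3 and 45.4, 51.8 and 54.3 TPM in LFD replicates 1 to 3. All HFD mice were below all LFD mice in TPM, whereas in CPM the diets overlapped, with HFD replicate 1 (57.5 CPM) above LFD replicate 2 (57.1 CPM). The log2 fold change of -0.40 was among the smaller of the 9, and its SE of 0.30 was the smallest (edgeR adjusted p = 0.737, or 0.286 with the replicate block).

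Thra shares 263 exonic bases with Nr1d1, which encodes a clock repressor, REV-ERB alpha, on the other strand. Nr1d1 had 492, 504 and 333 counts in HFD and 1757, 1422 and 718 counts in LFD, with separate diets (log2 fold change of -1.70 with an SE of 0.47, edgeR adjusted p = 0.280). Without a known strand setting, reads of the 2 genes in the shared bases cannot be told apart, and how much of the Thra difference lies there was not tested.

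Thrb encodes the thyroid hormone receptor beta, the receptor through which T3 acts on Ucp1 in brown fat, and lies on chromosome 14 at 17660261 to 18038090 on the plus strand. Its level was 4.32, 5.50 and 3.13 TPM in HFD replicates 1 to 3 and 6.83, 7.90 and 3.02 TPM in LFD replicates 1 to 3. As with Pde3b, LFD replicate 3 was as low as HFD replicate 3, and the other LFD mice were the highest. The log2 fold change was -0.31 with an SE of 0.56 (edgeR adjusted p = 0.922), and it was 0.18 without LFD replicate 1 and -0.71 without LFD replicate 3. The genes annotated on the other strand within Thrb share no exonic bases with it.

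The 9 partners and coregulators of the thyroid receptors were all tested, and 3 had a positive log2 fold change (median of -0.24). Ncor1, a corepressor and the most abundant, was at 53.3 to 91.7 TPM in HFD and 76.4 to 137 TPM in LFD, with a log2 fold change of -0.24 and an SE of 0.25. Rxra, the partner with which the receptors bind DNA, was at 23.0, 28.8 and 27.8 TPM in HFD and 76.0, 69.1 and 51.2 TPM in LFD. All HFD mice were below all LFD mice (log2 fold change of -1.11 with an SE of 0.39, edgeR adjusted p = 0.397).

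All 4 genes listed as induced by thyroid hormone had negative log2 fold changes (median of -1.65), opposite in sign to Dio2. Ucp1, a target of thyroid hormone as well, was listed with the cAMP-induced genes and had a log2 fold change of 3.67. Thrsp, a lipogenic gene, was at 447, 354 and 77.5 TPM in HFD and 2938, 812 and 162 TPM in LFD, with overlapping diets (log2 fold change of -2.16 with an SE of 1.33, edgeR adjusted p = 0.652). Klf9 was at 18.7, 29.3 and 14.3 TPM in HFD and 53.8, 56.3 and 43.4 TPM in LFD, with separate diets (log2 fold change of -1.13 with an SE of 0.44, edgeR adjusted p = 0.439). These genes also respond to signals other than T3, and Thrsp is known for its response to feeding with carbohydrate. The cause of the negative fold changes was not tested.

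The remaining steps between receptor and kinase were compared from the same fit. Gnas, which encodes the stimulatory G protein, was at 1333, 1483 and 645 TPM in HFD and 639, 599 and 783 TPM in LFD, with a log2 fold change of 1.09 and an SE of 0.56 (edgeR adjusted p = 0.569). Among the receptor kinases, arrestins and Rgs2, 6 of 7 had a positive log2 fold change. Of these, Adrbk1, a kinase that desensitises beta receptors and the most abundant of the list, had a log2 fold change of 0.36 and an SE of 0.23, and Rgs2, which restrains signalling through Gq, was at 27.8, 54.9 and 39.2 TPM in HFD and 17.7, 35.7 and 18.3 TPM in LFD. Rgs2 overlapped in TPM but not in CPM (log2 fold change of 0.90 with an SE of 0.33, edgeR adjusted p = 0.413). Prkar2b, the main regulatory subunit of protein kinase A in adipocytes, was at 277.6, 378 and 167 TPM in HFD and 391, 309 and 80.1 TPM in LFD, with a log2 fold change of 0.16 and an SE of 0.79. Pkia, an inhibitor of protein kinase A that is abundant in muscle, was at 2.39, 4.25 and 2.03 TPM in HFD and 16.5, 37.9 and 10.9 TPM in LFD, with separate diets (log2 fold change of -2.67 with an SE of 0.61, edgeR adjusted p = 0.198), and DESeq2 called it (adjusted p = 0.00139). Th and Dbh, which encode enzymes of noradrenaline synthesis, were at or under 0.20 TPM in every mouse. Ddc, listed for the same synthesis, was at 0.37 to 0.83 TPM in HFD and 0.16 to 3.82 TPM in LFD.

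Over all 12 pathway lists, 99 genes were found and 89 were tested. Of the 89, edgeR called 0 and DESeq2 called 2, beside 2.03% of the genes to which DESeq2 gave an adjusted p. At an unadjusted p under 0.05, 5 were higher (5.62%) and 10 lower (11.2%) in HFD, beside 3.86% and 6.62% of all genes tested. The diets were separate for 8 higher and 8 lower (8.99% each), beside 6.72% and 9.23%. With the replicate block, 12 were higher (13.5%) and 14 lower (15.7%) at an unadjusted p under 0.05, beside 8.75% and 8.76%, and again none was called. The median log2 fold change was -0.03, close to that of all genes tested. Adcy2, Pkia, Pde11a, Rxra and Klf9 were lower in every HFD mouse, as were all 12 skeletal muscle markers, whose summed level was 7.52 to 179.5 TPM in HFD and 1756 to 11922 TPM in LFD. The part of the muscle difference in these genes was not tested.

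**Figure D4:**
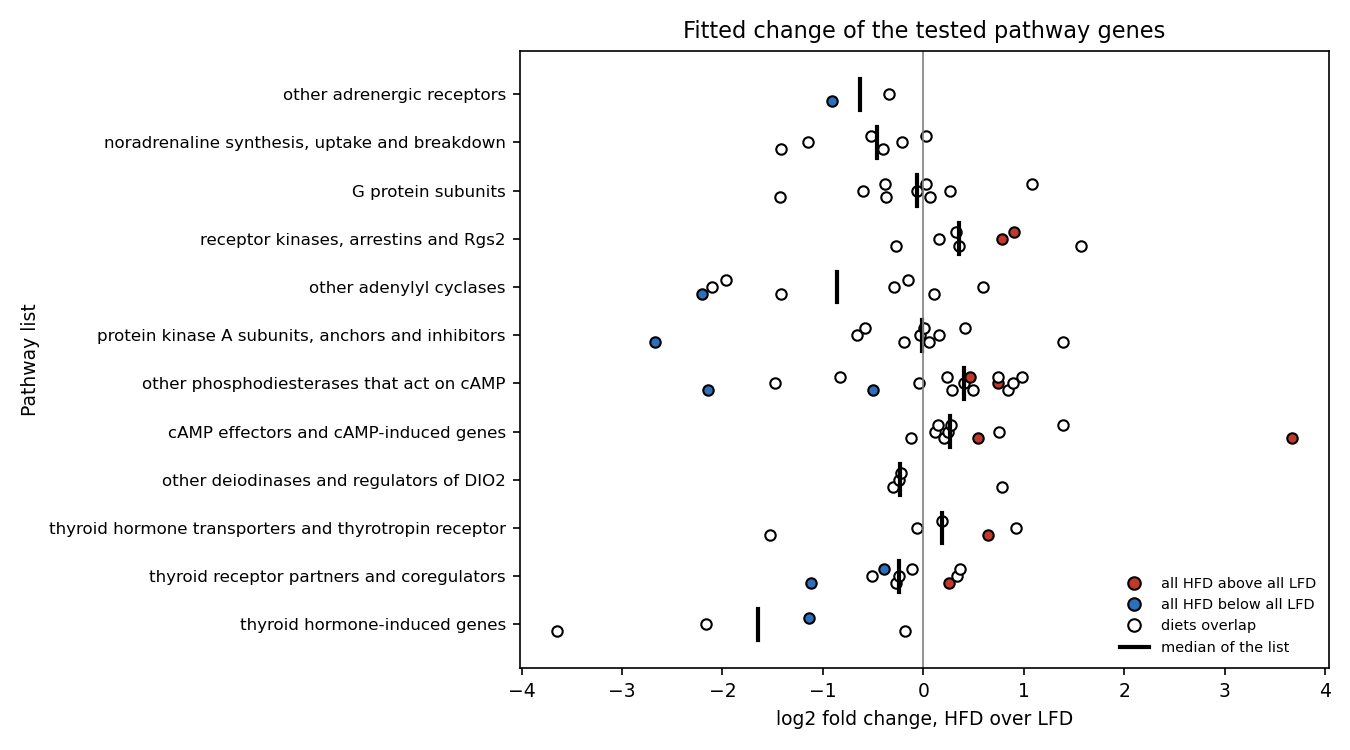
Fitted log2 fold change of HFD over LFD for the 89 tested genes of the 12 pathway lists, 1 point per gene, with a black bar for the median of each list. Red points are genes with all HFD mice above all LFD mice in CPM, blue points the reverse and white points genes whose diets overlap; the medians run from -1.65 for the thyroid hormone-induced genes to 0.41 for the phosphodiesterases.

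A ratio of 2 genes within a mouse does not depend on how libraries are scaled to each other, and 4 such ratios of TPM were compared by the two-sided exact permutation test over mice, for which the smallest p with 3 against 3 is 0.1. Adrb1 was 0.0817, 0.102 and 0.0831 of Adrb3 in HFD replicates 1 to 3 and 0.0224, 0.0135 and 0.0726 of Adrb3 in LFD replicates 1 to 3. The HFD mice lay together above all LFD mice, with a log2 difference of 1.66 (exact p = 0.1, adjusted over the 4 ratios 0.2). With 1 added to each TPM, the difference was 1.23 and the diets overlapped (exact p = 0.4). LFD replicate 3, the mouse with little Adrb3, was the LFD mouse nearest to them.

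Pde3b was 1.22, 0.349 and 0.652 of Adcy3 in HFD replicates 1 to 3 and 8.23, 9.04 and 1.25 of Adcy3 in LFD replicates 1 to 3. The diets did not overlap, with a log2 difference of -2.80 (exact p = 0.1, adjusted 0.2), but HFD replicate 1 and LFD replicate 3 nearly met. CPM does not correct for the shorter mean length of Adcy3 in HFD. With CPM in place of TPM, the difference was -2.28 and the diets overlapped (exact p = 0.2). Thra was 7.05, 7.57 and 9.07 times Thrb in HFD replicates 1 to 3 and 6.65, 6.56 and 18.0 times Thrb in LFD replicates 1 to 3. Thra was the more abundant receptor in every mouse, and the log2 difference between diets was -0.23 (exact p = 1.0). Adra2a was at most 0.0744 of Adrb3, in LFD replicate 3, and at most 0.00651 of it in the other mice, with a log2 difference of -1.38 (exact p = 0.6, adjusted 0.8), or -0.30 with 1 added to each TPM (exact p = 1.0).

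**Figure D5:**
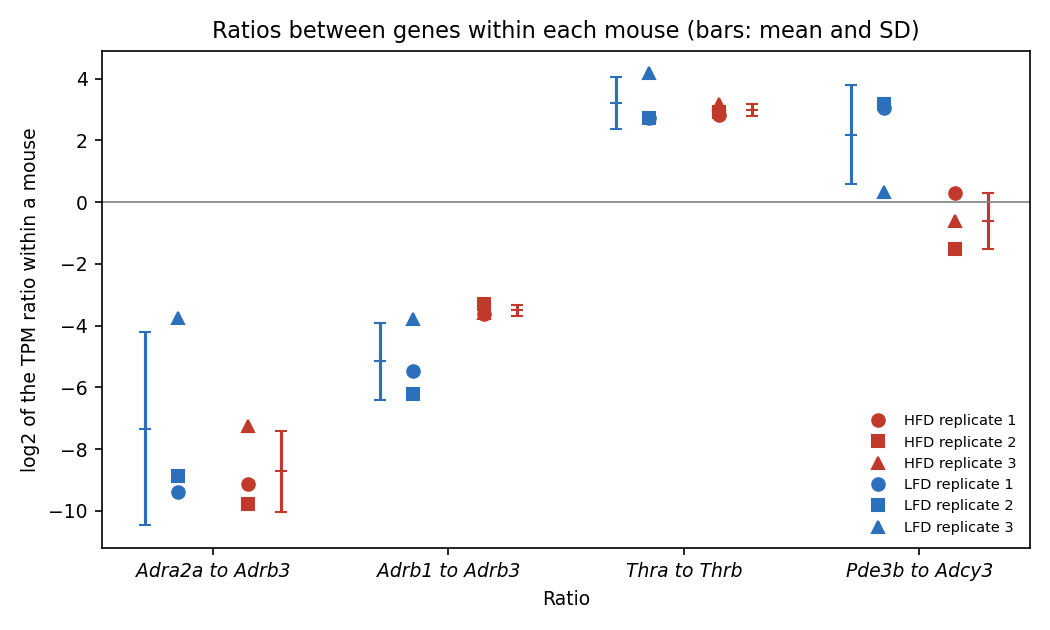
Log2 of 4 ratios of TPM within each mouse, with red for HFD and blue for LFD, a symbol for each replicate number and bars for the mean and SD of each diet. The ratio of Adrb1 to Adrb3 was higher in every HFD mouse and that of Pde3b to Adcy3 was lower, while LFD replicate 3 lay apart from the other LFD mice in all 4 ratios.

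The 9 genes varied along different lines over the 6 mice. In log2 CPM, Pde3b and Thrb were nearly proportional (Pearson r = 0.999 over 6 mice), each was the gene most like the other among all genes tested, and Adrb3 went with both (r = 0.941 and 0.937). Adrb1 went with Adra1a (r = 0.974) and Dio2 (r = 0.945), and Adra2a ran against Adrb3 (r = -0.827) and Adra1a (r = -0.840). Among all genes tested, the 3 most like Adrb1 were Ppara, Cpt1b and 2810030D12Rik (r = 0.993 to 0.994), of which the first and second act in fatty acid oxidation. Those most like Dio2 were Gm15241, Slc16a1, a lactate transporter, and Impa2 (r = 0.991 to 0.996), and those most like Adra1a were Gm8935, Gm13111 and Gm10175 (r = 0.994 to 0.998). Adrb3 was most like Rps6ka5, Rabgef1 and Dcst2 (r = 0.989 to 0.992), and Adra2a most like Khsrp, Arhgap23 and Gmds (r = 0.997 to 0.999). Next to Thrb, Pde3b was most like Pfkfb3, a regulator of glycolysis, and Chpt1 (r = 0.998 to 0.999), and Thrb was most like Pde3b, Chpt1 and Cat, which encodes catalase (r = 0.998 to 0.999). For Adcy3 the genes were Fam131c, Wdr4 and Ckb, the brain type creatine kinase (r = 0.973 to 0.983), and for Thra they were Lyplal1, Zhx2 and Peli2 (r = 0.992 to 0.993). The r of each most similar gene is among the highest over 17668 genes, while the other values are between members. Every r comes from 6 points that share their libraries and depth, and is a description without a test.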

How the data were processed

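BAT of 3 LFD-fed and 3 HFD-fed mice was sequenced (single-end, 75 bases). Adapters were trimmed by the authors with Trimmomatic 0.36, and reads were quantified with RSEM 1.3.0 on GRCm38.p4 with the Ensembl 84 annotation, per the labels and the methods of the study. For each mouse the authors deposited, per gene, an expected count, which is not normalized and splits reads with several matches among genes, a TPM value, which corrects for transcript length and sums to the same total in each mouse, and a mean transcript length. The estimated length therefore enters TPM, while the expected counts are not corrected for a difference in length.

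Expected counts were rounded to whole numbers. Genes were tested in R 4.3.3 with the quasi-likelihood test of edgeR 4.0.16 (TMM normalization, filterByExpr, no covariate, Benjamini-Hochberg adjustment over all genes tested). As in the methods of the study, a call needed a log2 fold change beyond 1.5 in either direction and an adjusted p under 0.01. Log2 CPM had a prior count of 2. The test was tried on simulated counts first. Totals of 17156991 to 21603487 counts per mouse set the precision, and genes with few counts carry counting error beside the spread between mice. Between mice of one diet, chi-square divided by its degrees of freedom was 71.7 to 557.7, so no library was a repeat.

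Samples were assigned from their labels, which number the mice 1 to 3 in each diet without saying what a number shares. The deviations from the diet means correlated in all same-numbered pairs (r = 0.498, 0.229 and 0.522, against -0.528 to 0.0532 for other pairs), so the numbers were treated as pairing the mice.

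The alternatives were DESeq2 1.42.0, RLE size factors, library totals only, at least 10 counts in every mouse, no filter, the replicate block, mitochondrial and ribosomal RNA genes left out, limma 3.58.1 on log2(TPM + 1), a looser threshold, and each mouse left out. For the ratios, CPM in place of TPM, 1 added to each TPM and differences within replicate number were tried. The 9 genes, the pathway and marker lists and the tests were chosen with earlier results of these data known. Named beside the 9 genes were the most abundant tested gene of each list, list genes at an unadjusted p under 0.05 with separate diets, genes that overlap a member, and the 3 genes of highest correlation with a member. Of the genes this rule names, 3 are not reported here. Positions are from GENCODE M21 and the promoter from RefSeq.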

Additional observations from a re-analysis of the deposited data

How the results depend on the processing

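None of the 9 genes and no pathway gene was called under any alternative except DESeq2, which called 1 of the 9 (Adcy3, adjusted p = 0.00646, log2 fold change of 2.19) and 2 pathway genes. DESeq2 called 2.03% of all genes to which it gave an adjusted p. With the replicate block, 5 of the 9 genes instead of 3 had an unadjusted p under 0.05, the log2 fold change of Adrb3 was 0.15, and no other call changed. The diets were separate for 4 genes instead of 2 with library totals only and with TPM, where Adra1a and Thra joined Adrb1 and Adcy3. TPM moved the median of all genes by -0.13. With a mouse left out, 1 to 4 genes had an unadjusted p under 0.05 and 2 to 5 had separate diets. For these sets the share of all genes tested was not worked out, so the counts have no background beside them. Diets also separate more readily with 3 mice against 2 than with 3 against 3. Without LFD replicate 1 the log2 fold changes of Adrb3, Pde3b and Thrb became 0.23, 0.16 and 0.18, and without LFD replicate 3 they were -0.87, -1.03 and -0.71. Without LFD replicate 3 the log2 ratios of Adra2a to Adrb3 and of Thra to Thrb became 0.42 and 0.25, and the cause was not tested. Leaving out a mouse took the 4 log2 ratios over -2.41 to 0.42 for Adra2a to Adrb3, 1.13 to 2.35 for Adrb1 to Adrb3, -0.48 to 0.25 for Thra to Thrb and -3.72 to -2.30 for Pde3b to Adcy3. Among the remaining values, the count at an unadjusted p under 0.05 was 2 with RLE size factors and without mitochondrial and ribosomal RNA genes, and 4 with DESeq2, library totals, no filter and TPM. No remaining fold change or ratio changed sign. The log2 fold changes of Adrb1, Adra1a and Adra2a crossed the limit of 1.5 in size under some alternatives. Adrb1 fell to 1.17 with TPM and to 1.40 without LFD replicate 3. Adra1a fell to 1.46 without HFD replicate 1, 1.33 without LFD replicate 2 and 1.17 without LFD replicate 3. Adra2a went to -2.00 without HFD replicate 3, and to -1.74 without LFD replicate 1 and without LFD replicate 2. Adra2a has no value under the filter of 10 counts in every mouse. At 3 mice per diet and a biological coefficient of variation of 0.448, the adjusted p of Dio2 and Adra1a stayed at 0.160 and 0.144 with the replicate block and above that without it.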
